A study of Mus musculus with 7 samples.

Results

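The 28 genes described here carry out or control the making and movement of cholesterol: 18 enzymes of the mevalonate and sterol route, 5 genes of the SREBP control system, and 5 genes of cholesterol transport and storage. They were chosen by gene symbol, and all 28 were found among the 23282 rows of the deposited tables. All 28 passed the filters on low values and were tested in every comparison. The 7 libraries were QuantSeq 3′ mRNA libraries, in which each read is a tag near the 3′ end of a transcript, prepared from uterine tissue of mice. The saline group held 2 libraries, the CXCL12 Day 3 group 2 and the CXCL12 Day 8 group 3.

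The mice were C57BL/6 females aged 6 weeks. Recombinant human CXCL12, a chemokine, was infused at 100 ng in 30 µl into the cavity of a uterine horn while the opposite horn received saline. Tissue was taken 3 or 8 days later, but for the saline libraries the sample labels name no day. No genetic change is named for any group. The tissue is named only as uterus, so each library mixes epithelium, stroma, muscle, vessels and immune cells, and fewer cells of a type cannot be told apart from less RNA per cell. The labels do not say whether libraries of a group came from separate animals, and the paper calls the CXCL12-treated samples independent without naming the unit, so every P below measures the spread between these libraries, which may be technical. Groups are compared for the question the study asked, namely how the uterine transcriptome differed after CXCL12.

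Every nucleated cell can build cholesterol from acetyl-CoA through mevalonate, isoprenoids, squalene and lanosterol, and steroid-making tissues such as the ovary use it as the raw material of hormones. When sterol in the endoplasmic reticulum is low, SCAP carries the SREBP factors to the Golgi, where they are cut and freed to switch on the enzyme genes. When sterol is plentiful, INSIG proteins hold SCAP back and LXR receptors switch on the exporters ABCA1 and ABCG1, while SOAT1 turns surplus cholesterol into stored ester. The known DNA elements of this control are the SREBP element and the nearby CCAAT box bound by NF-Y.

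These elements were looked for, as letters alone and on both strands, in the RefSeq promoter windows of build GRCm38.p6, which cover 250 bases before and 50 after each start site. Of the 28 genes, 22 had a window. The letters CCAAT stood in a window of 19 of those 22 genes (86.4%), against 41.1% of the 27025 genes in the RefSeq table. Mvk, mevalonate kinase, had 5 matches in its window, a number reached in 0.271% of all 32851 windows, and Hmgcs1 and Nsdhl had 4. The SREBP element searched, TCACNCCAC, was found in Hmgcs1 alone, 137 bases before its start site, and in 1.44% of all genes. The LXR element searched, the direct repeat known as DR4, was found in none of the 22 and in 0.0148% of all genes. A match or its absence describes only these letters in these windows.

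The bases before the start site are printed for the 6 genes whose levels carry the results below: an early enzyme (Hmgcs1), the enzyme with the widest range apart from Hsd17b7 (Idi1), both control genes that were lower at Day 8 than at Day 3 (Insig1 and Srebf2), the enzyme that stood far out in a single library (Hsd17b7) and an exporter (Abca1). Each reads 5′ to 3′ in the direction of its gene, and stops where the RefSeq gene begins. Capitals mark CCAAT, which reads ATTGG on the opposite strand, and in Hmgcs1 also the SREBP element. The stretches are chr13:119690101-119690350 on the plus strand for Hmgcs1, chr13:8885356-8885605 on the plus strand for Idi1, chr5:28071162-28071411 on the plus strand for Insig1, chr15:82147019-82147268 on the plus strand for Srebf2, chr1:169969243-169969455 on the minus strand for Hsd17b7 and chr4:53159989-53160145 on the minus strand for Abca1.
Hmgcs1: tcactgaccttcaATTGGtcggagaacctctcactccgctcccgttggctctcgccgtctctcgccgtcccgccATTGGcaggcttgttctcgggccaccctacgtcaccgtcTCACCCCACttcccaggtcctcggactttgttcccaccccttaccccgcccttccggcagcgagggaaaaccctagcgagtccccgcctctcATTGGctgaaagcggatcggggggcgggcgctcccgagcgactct
Idi1: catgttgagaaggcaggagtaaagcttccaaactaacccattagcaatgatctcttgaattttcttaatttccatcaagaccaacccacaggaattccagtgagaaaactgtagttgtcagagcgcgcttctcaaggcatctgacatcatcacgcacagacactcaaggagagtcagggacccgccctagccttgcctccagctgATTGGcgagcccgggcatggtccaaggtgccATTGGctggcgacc
Insig1: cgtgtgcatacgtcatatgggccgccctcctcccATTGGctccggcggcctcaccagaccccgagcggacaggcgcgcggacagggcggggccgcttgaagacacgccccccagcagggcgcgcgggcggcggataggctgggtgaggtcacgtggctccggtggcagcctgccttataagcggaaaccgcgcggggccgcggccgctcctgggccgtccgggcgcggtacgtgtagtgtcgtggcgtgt
Srebf2: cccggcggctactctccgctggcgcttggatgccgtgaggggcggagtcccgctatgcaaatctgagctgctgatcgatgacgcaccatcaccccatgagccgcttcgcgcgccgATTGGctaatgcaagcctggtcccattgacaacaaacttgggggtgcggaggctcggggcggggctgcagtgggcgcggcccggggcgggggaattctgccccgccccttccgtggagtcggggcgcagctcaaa
Hsd17b7: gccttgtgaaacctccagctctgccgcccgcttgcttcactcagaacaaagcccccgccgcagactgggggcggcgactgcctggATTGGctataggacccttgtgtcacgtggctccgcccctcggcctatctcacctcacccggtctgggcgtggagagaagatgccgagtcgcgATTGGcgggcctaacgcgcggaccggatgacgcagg
Abca1: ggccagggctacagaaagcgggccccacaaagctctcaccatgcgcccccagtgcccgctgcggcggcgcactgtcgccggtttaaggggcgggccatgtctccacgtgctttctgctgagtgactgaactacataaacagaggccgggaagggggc

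In the 5 enzyme and control genes shown, every CCAAT match before the start site read ATTGG, that is, CCAAT on the opposite strand. The stretch of Abca1 held none of the 3 elements.

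Several facts about the libraries bear on all that follows. The 6 count tables held between 6908790 and 12308982 counts, and Day 3 replicate 1 was deposited as log2 values that were turned back to a linear scale. The label of Day 8 replicate 1 places it at Day 8, while its deposited table is named for Day 3, and the label was followed. Markers of steroid-making ovary cells, 7 genes, summed to 3671 CPM (reads scaled to library size with TMM factors) in Day 8 replicate 2 and 1041 in saline replicate 2, but to 5.26 to 159 CPM in the other 5 libraries. Of these, Lhcgr, the luteinizing hormone receptor, had 446 counts in Day 8 replicate 2, 39 in saline replicate 2, 1 in saline replicate 1 and 0 in the other 3 count libraries. Hsd3b1, also of the 7, had 28821 counts in Day 8 replicate 2 and 7343 in saline replicate 2. It still had 577 in saline replicate 1 and 510 in Day 8 replicate 1, against 0 in Day 3 replicate 2 and 4 in Day 8 replicate 3. Results are therefore also given without saline replicate 2 and Day 8 replicate 2, and without Day 8 replicate 1. Leaving these out does not make every library that remains free of ovary marker RNA. The labelled tissue was borne out by its markers, since every gene of the epithelium, stroma and smooth muscle lists, 6 genes each, had counts in every library. For 8 of the 28 genes, exons overlap a gene on the opposite strand in the GENCODE annotation (Hmgcs1, Idi1, Fdft1, Lss, Cyp51, Srebf1, Scap and Npc1). For 3 they overlap a gene on the same strand (Fdps, Tm7sf2 and Srebf1). Whether strand was used in counting is not given in the sources used here, so reads of such pairs cannot be told apart.

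Below, the values of a group follow its replicate numbers. A level is a CPM value, and a difference is a log2 fold change with its standard error. A gene was called when its fold change reached 2 with an unadjusted P under 0.05, a rule that does not correct for the number of genes. Day 8 was compared to saline by edgeR's quasi-likelihood test, and limma was used for Day 3 compared to saline and for Day 8 compared to Day 3, on log2(scaled count + 1), a scale that understates the change of low genes. Adjusted p-values are Benjamini-Hochberg values over all genes tested, and in none of the 3 comparisons did any gene, of the 28 or not, reach an adjusted p of 0.1. DESeq2, run on the same counts for Day 8 compared to saline, gave 49 genes an adjusted p under 0.1, with 0 of the 28 among them. The Day 3 comparison depended on which saline library was kept. Its median log2 fold change over the 28 was 0.35, but -0.07 without saline replicate 1 and 0.55 without saline replicate 2. Those 2 fits each left 1 saline library, so the number of genes passing is not given for them. At Day 8 compared to Day 3, 468 genes reached an adjusted p under 0.1 by limma without Day 8 replicate 1, 2 of the 28 among them.

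**Figure D1:**
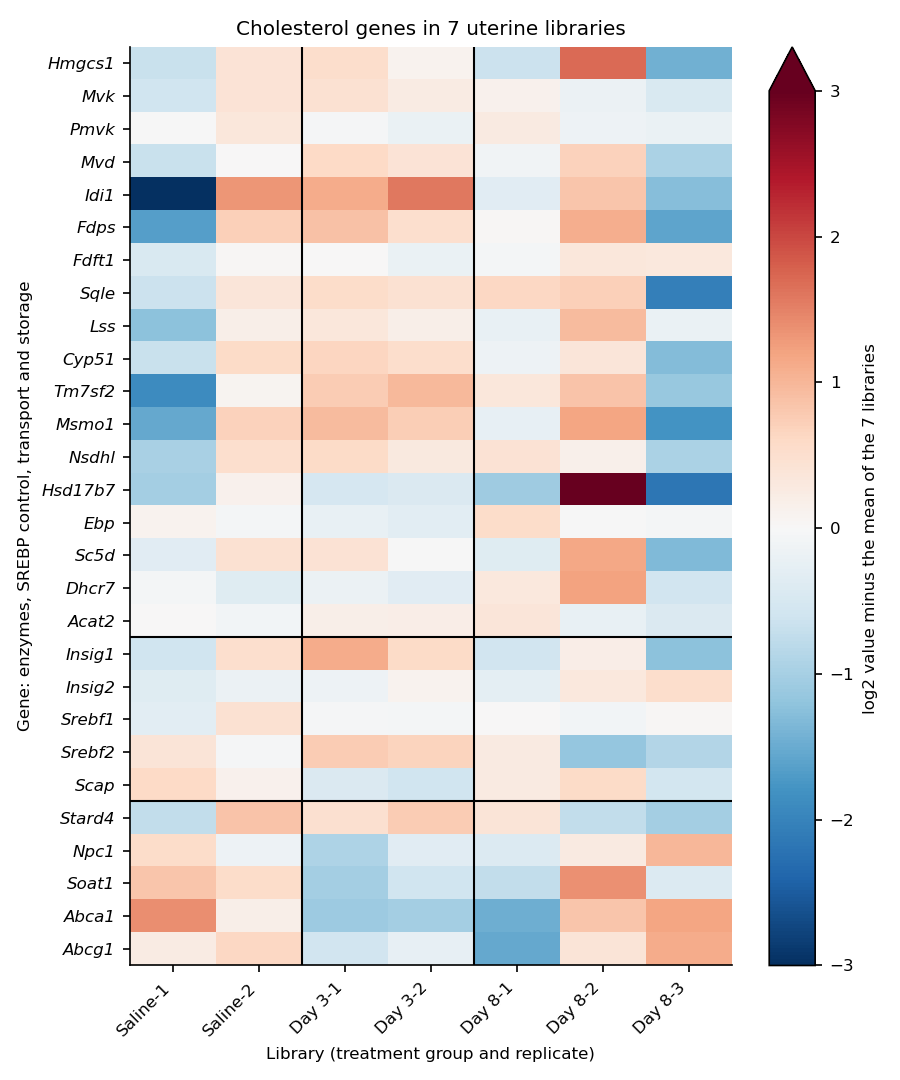
Level of each of the 28 genes (rows, grouped as enzymes, SREBP control, and transport and storage) in each of the 7 libraries (columns), as the log2 value minus the mean of the 7 libraries; red is above and blue below that mean, and Hsd17b7 in Day 8 replicate 2 lies past the top of the colour scale at 3. Most enzymes are blue in saline replicate 1 and Day 8 replicate 3 and red in both Day 3 libraries, while Npc1, Soat1, Abca1 and Abcg1 are blue in both Day 3 libraries and in Day 8 replicate 1.

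The enzymes of the first steps turn acetyl-CoA into mevalonate and then into activated isoprene units. Acat2, the cytosolic thiolase that joins acetyl-CoA, was 74.8 and 73.6 CPM with saline, 92.4 and 92.4 CPM at Day 3, and 101, 64.8 and 58.1 CPM at Day 8. Hmgcs1, HMG-CoA synthase, was 63.1 and 138 CPM with saline, 166 and 119 CPM at Day 3, and 66.5, 322 and 38.3 CPM at Day 8. The Day 8 libraries of Hmgcs1 thus held both the lowest and the highest level of the 7, 8.4-fold apart, and the saline libraries lay between them. Mvk was 8.58 and 18.3 CPM with saline, 17.9 and 15.4 CPM at Day 3, and 14.6, 12.3 and 9.94 CPM at Day 8. Pmvk, phosphomevalonate kinase, stayed between 12.8 and 19.8 CPM, the narrowest range of any of the 28 genes at 1.54-fold. Mvd, the decarboxylase that makes isopentenyl diphosphate, was 6.5 and 10.8 CPM with saline, 15.2 and 13.8 CPM at Day 3, and 9.57, 17.3 and 5.49 CPM at Day 8. Both Day 3 libraries were above both saline libraries for Mvd and Acat2 but not for Hmgcs1 or Mvk.

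Idi1, the isomerase that supplies the reactive isoprene unit, was 1.35 and 33 CPM with saline, 27.8 and 38.9 CPM at Day 3, and 9.92, 23.1 and 5.38 CPM at Day 8. Its range over the libraries was 28.9-fold, and saline replicate 1 alone accounted for the lowest value, with 11 counts against 342 in saline replicate 2. Fdps, farnesyl diphosphate synthase, was 5.27 and 28.1 CPM with saline, 30.3 and 23.1 CPM at Day 3, and 16.7, 35.1 and 5.59 CPM at Day 8, so saline replicate 1 and Day 8 replicate 3 were again low. Fdft1, squalene synthase and the first enzyme committed to sterols, varied little by comparison. It was 34.3 and 50.1 CPM with saline, 49.4 and 42.5 CPM at Day 3, and 46.3, 59.6 and 60.5 CPM at Day 8, and was the only enzyme highest in Day 8 replicate 3.

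Squalene is next oxidised and closed into lanosterol. Sqle, squalene epoxidase and a rate-limiting step of the route, was 10.7 and 22.8 CPM with saline, 24.5 and 23.1 CPM at Day 3, and 26.1, 27.8 and 4.04 CPM at Day 8. Lss, lanosterol synthase, was 2.57 and 7.14 CPM with saline, 7.35 and 6.52 CPM at Day 3, and 4.9, 12 and 5.38 CPM at Day 8. Day 8 replicate 3 was the lowest library for Sqle and saline replicate 1 for Lss. Cyp51, which removes the alpha-methyl group at the lanosterol ring junction, was 37.8 and 91 CPM with saline, 103 and 92.9 CPM at Day 3, and 54.9, 76.4 and 25.3 CPM at Day 8. All 3 Day 8 libraries lay below both Day 3 libraries for Cyp51. Tm7sf2, a sterol reductase, had few counts, at 0.858 and 3.28 CPM with saline, 4.69 and 5.48 CPM at Day 3, and 3.38, 5.69 and 1.14 CPM at Day 8. Its lowest value rested on 7 counts, for which a 95% Poisson interval runs from 2.81 to 14.4 counts and covers counting error only.

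Msmo1, the sterol methyl oxidase, was 23.5 and 110 CPM with saline, 146 and 121 CPM at Day 3, and 58.7, 153 and 20.2 CPM at Day 8. Nsdhl, its partner dehydrogenase, was 5.27 and 15.1 CPM with saline, 14.9 and 12.4 CPM at Day 3, and 13.8, 12 and 5.49 CPM at Day 8. For both genes saline replicate 1 and Day 8 replicate 3 were the 2 lowest libraries. Of the enzymes that finish the sterol ring, Sc5d, the desaturase, was 22.4 and 39.9 CPM with saline, 38.6 and 28 CPM at Day 3, and 21.9, 61.5 and 11.6 CPM at Day 8. Dhcr7, which makes cholesterol from its last dehydro precursor, was 9.07 and 7.91 CPM with saline, 8.17 and 7.35 CPM at Day 3, and 11.9, 22.7 and 6.63 CPM at Day 8. Day 8 replicate 2 was the highest library for both and Day 8 replicate 3 the lowest. Ebp, the sterol isomerase, stayed between 78.3 and 140 CPM with its highest level in Day 8 replicate 1.

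Hsd17b7 stood apart from every other enzyme. Its product reduces a sterol ketone in cholesterol synthesis and also makes oestradiol from oestrone, and in rodents it is known as a gene of the corpus luteum. It was 6.38 and 14.6 CPM with saline, 8.69 and 9.42 CPM at Day 3, and 5.95, 430 and 2.8 CPM at Day 8. Day 8 replicate 2 alone was high, with 5208 counts against 27 in Day 8 replicate 3, and the remaining 6 libraries lay between 2.8 and 14.6 CPM. Within groups the log2 spread of Hsd17b7 (SD 2.78) was above that of 99.9% of the genes tested. The library with this level was the one with the highest ovary marker sum, 3671 CPM, and the next highest library of Hsd17b7, saline replicate 2, had the next highest sum, 1041 CPM. The part of that RNA in the result was not tested.

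**Figure D2:**
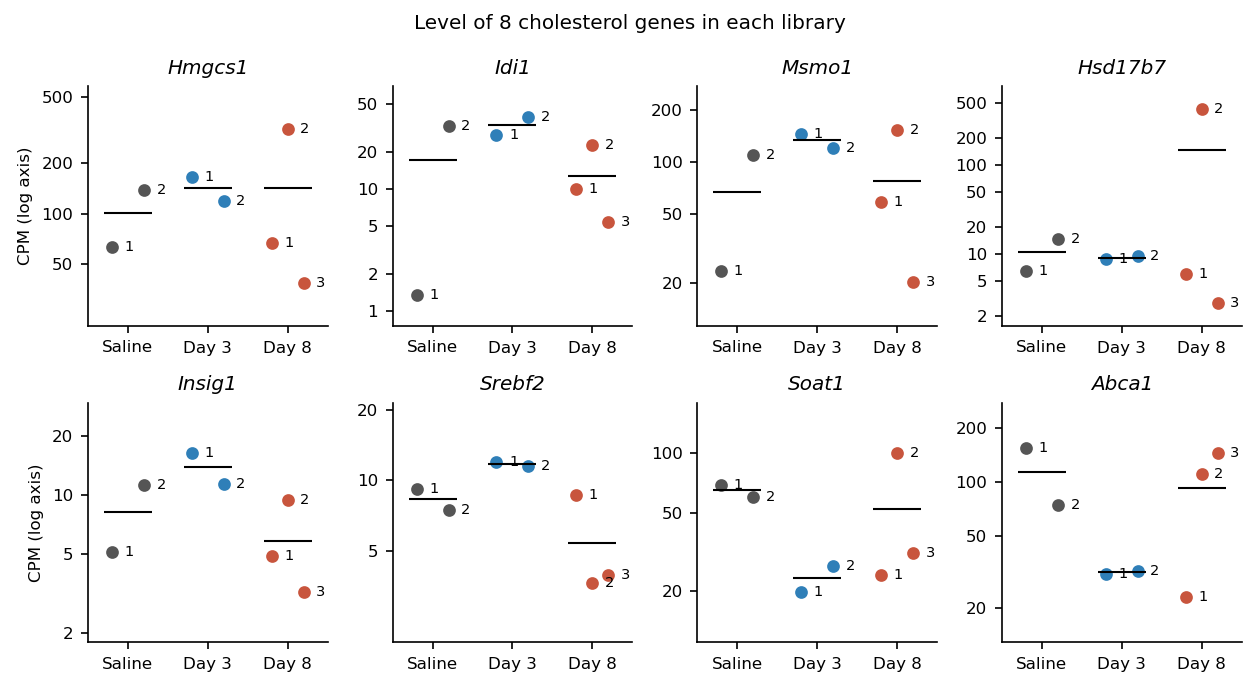
Level of 8 of the genes in each library, in CPM on a log axis; digits beside the points are replicate numbers and lines are group means. Day 8 replicate 2 is highest for Hmgcs1, Msmo1, Hsd17b7 and Soat1, both Day 3 libraries are below both saline libraries for Soat1 and Abca1, and all 3 Day 8 libraries are below both Day 3 libraries for Idi1, Insig1 and Srebf2.

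The enzymes spread widely within groups. Without Hsd17b7, the 17 other enzymes summed to 416.2 and 759.6 CPM with saline, 845.1 and 733.8 CPM at Day 3, and 618.5, 1009 and 365.3 CPM at Day 8. The 2 Day 3 sums fell inside the range of the Day 8 sums and on both sides of saline replicate 2. Of the 18 enzymes, 10 were highest in Day 8 replicate 2, 9 were lowest in Day 8 replicate 3 and 7 were lowest in saline replicate 1. Day 8 replicate 2 was above Day 8 replicate 3 for 17 of 18, and saline replicate 2 was above saline replicate 1 for 15 of 18. The median within-group SD was 0.74 on the log2 scale for the enzymes, against 0.42 for all 14830 genes. The highest sum, 1009 CPM in Day 8 replicate 2, was found beside the highest ovary marker sum, 3671 CPM. Saline replicate 2 was above saline replicate 1 in both sums, with ovary sums of 1041 and 159.1 CPM. The lowest enzyme sum, in Day 8 replicate 3, was found beside an ovary marker sum of 9.94 CPM. The Day 3 libraries, with ovary sums of 5.26 and 7.35 CPM, had enzyme sums of 845.1 and 733.8 CPM. The part of ovary RNA in the enzyme sums was not tested.

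Compared to saline, Day 8 showed no called enzyme. The differences of the 18 ran from a log2 fold change of -0.43 to 3.80 with a median of 0.20, against -0.01 for all genes tested, and 14 were above 0 and 4 below. None of the 28 genes was called in either direction, where 1.53% of all genes tested were called higher and 1.42% lower, and 0 of the 28 had an unadjusted P under 0.05 by edgeR, where 4.28% of all genes did. DESeq2 also called 0 of the 28. Hsd17b7 had the largest estimate at 3.80 ± 2.08 (SE), with an adjusted p = 0.956 by edgeR's quasi-likelihood test, with 1 of 3 Day 8 libraries above both saline libraries. Without Day 8 replicate 2 the estimate for Hsd17b7 was -1.26. Next came Tm7sf2 at 0.71 ± 0.85 and Dhcr7 at 0.70 ± 0.54. On the log2 scale 0 of the 28 genes had Day 8 and saline libraries that did not overlap, where 9.41% of genes lay wholly higher and 9.49% wholly lower. Leaving out Day 8 replicate 1 called Srebf2 lower, where 3.25% of all genes were then called lower and 3.44% higher. Leaving out saline replicate 2 and Day 8 replicate 2 called Idi1 higher and Soat1 lower, where 4.83% of genes were then called higher and 2.8% lower.

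Compared to saline, Day 3 also showed no called enzyme, although 14 of 18 estimates lay above 0. By limma 0 of the 18 had an unadjusted P under 0.05, where 7.5% of all genes did. The median over the enzymes was 0.54, and it was 0.01 over all genes. The largest was Idi1 at 2.31 ± 1.29, followed by Tm7sf2 at 1.76 ± 0.84, Msmo1 at 1.27 ± 0.96 and Fdps at 1.15 ± 0.94, each with an adjusted p of 0.617 or above by limma. On the quantile-normalized log2 scale of this fit, 8 of all 28 genes lay wholly higher at Day 3 than with saline (28.6%, against 24.2% of all genes), and 5 of these were enzymes: Mvd, Sqle, Tm7sf2, Msmo1 and Acat2. On the CPM scale Cyp51 also lay wholly higher, and Insig2, counted among the 8, overlapped. Another 7 lay wholly lower (25%, against 22.2% of all genes), of which Pmvk and Ebp were enzymes. Both shares were near those of all genes. The estimate for Idi1 depended on a single saline library, since it was 0.02 without saline replicate 1 and 4.62 without saline replicate 2. When saline replicate 2 and Day 8 replicate 2 were left out, 7 enzymes were called higher (Lss, Idi1, Tm7sf2, Fdps, Cyp51, Msmo1 and Mvd), where 10.4% of all genes were called higher and 9.29% lower. Saline replicate 1 was then the only saline library, and it was assumed to vary like the other groups.

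Between the 2 times, 13 of 18 enzymes had estimates below 0 at Day 8 compared to Day 3, with a median of -0.48 against 0.00 for all genes, and none was called. By limma 0 of the 18 had an unadjusted P under 0.05, where 7.07% of all genes did. Idi1 had the largest at -1.61 ± 1.18, then Msmo1 at -1.12 ± 0.87 and Cyp51 at -0.95 ± 0.51, with adjusted p of 0.725 or above by limma. Mvk, Idi1 and Cyp51 lay wholly lower at Day 8 (16.0% of all genes did), and Ebp wholly higher (15.9% of all genes did). Hsd17b7 was estimated at 1.07 ± 1.81 by limma. At Day 8 compared to saline it was 1.05 by limma and 3.80 by edgeR, since limma averages log2 values rather than counts. Without saline replicate 2 and Day 8 replicate 2, 7 enzymes and Insig1 were called lower at Day 8 than at Day 3, where 2.07% of all genes were called lower and 1.8% higher. The enzymes were Idi1, Hmgcs1, Fdps, Cyp51, Msmo1, Mvd and Sc5d, and the smallest adjusted p of the 28 genes was 0.609 by limma. Without Day 8 replicate 1 no enzyme was called.

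**Figure D3:**
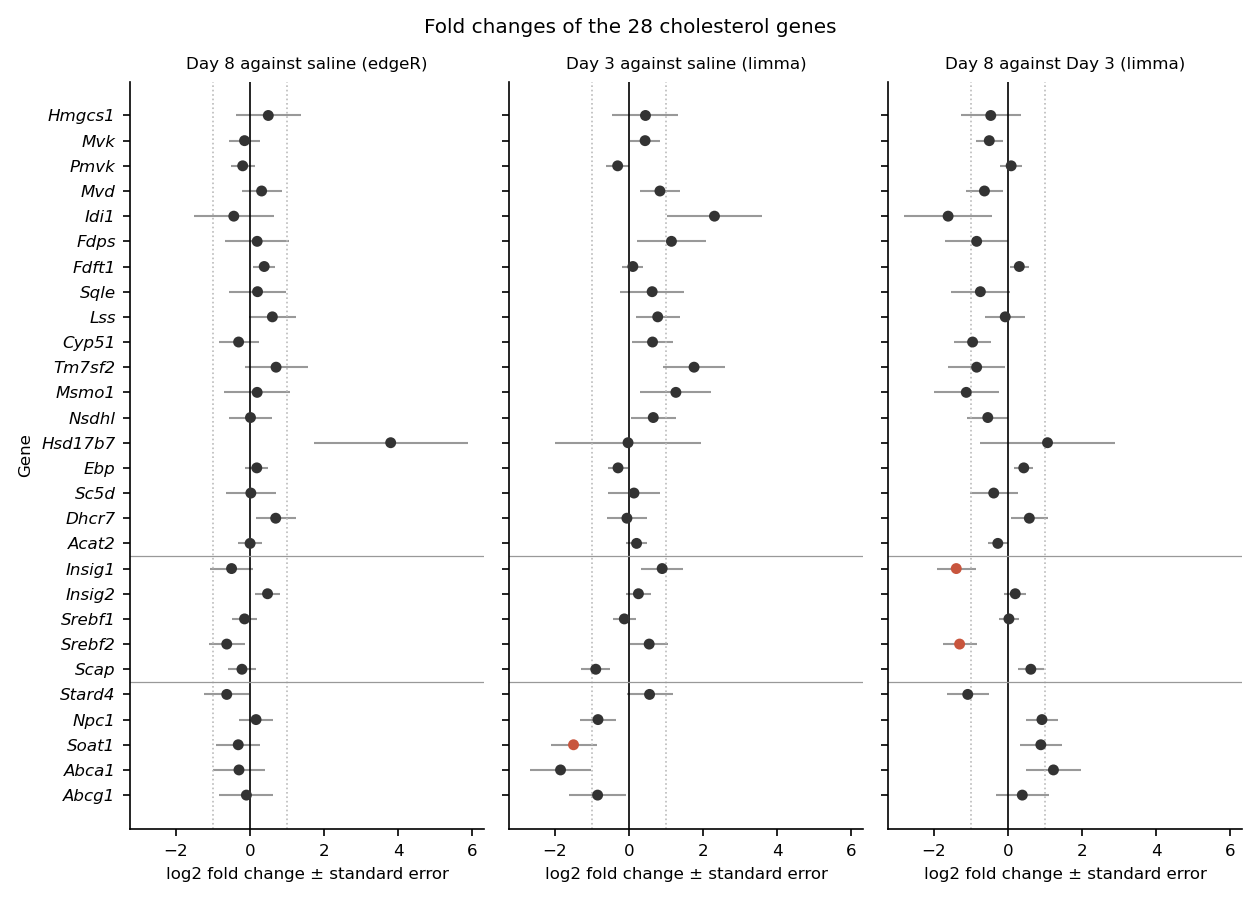
Log2 fold change (x axis) with its standard error (bars) for each of the 28 genes in 3 comparisons, with dotted lines at a fold change of 2 and red points for called genes. Called genes are Soat1 in Day 3 against saline and Insig1 and Srebf2 in Day 8 against Day 3, all lower, and none in Day 8 against saline.

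Among the genes of SREBP control, Srebf2 encodes the factor that chiefly drives the cholesterol enzymes. It was 9.2 and 7.43 CPM with saline, 12 and 11.5 CPM at Day 3, and 8.63, 3.63 and 3.94 CPM at Day 8. All 3 Day 8 libraries were below both Day 3 libraries, and both Day 3 libraries were above both saline libraries. In group means this was 8.31 ± 1.25 CPM (SD, n = 2) with saline, 11.8 ± 0.395 CPM (SD, n = 2) at Day 3 and 5.4 ± 2.8 CPM (SD, n = 3) at Day 8. Srebf2 was called lower at Day 8 than at Day 3, by -1.30 ± 0.46 on the log2 scale, with an adjusted p = 0.695 by limma. It was 0.55 ± 0.51 at Day 3 compared to saline and -0.62 ± 0.49 at Day 8 compared to saline, neither called.

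Insig1 encodes a brake on SREBP release and is itself a target of SREBP. It was 5.15 and 11.3 CPM with saline, 16.4 and 11.4 CPM at Day 3, and 4.9, 9.4 and 3.21 CPM at Day 8, so that Day 8 again lay wholly below Day 3 while saline overlapped Day 8. The means were 8.22 ± 4.34 CPM (SD, n = 2), 13.9 ± 3.57 CPM (SD, n = 2) and 5.84 ± 3.2 CPM (SD, n = 3). Insig1 was called lower at Day 8 than at Day 3, by -1.39 ± 0.52, with an adjusted p = 0.696 by limma. Of the 28 genes, Insig1 and Srebf2 were the 2 called in this comparison, and 2.33% of all genes tested were called lower and 2.2% higher. Together with Stard4 and 3 enzymes they made up the 6 genes that lay wholly lower at Day 8 than at Day 3 (21.4%, against 16.0% of all genes), and 1 gene, Ebp, lay wholly higher, where 15.9% of all genes did.

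Neither call held in every setting. Without Day 8 replicate 1, Srebf2 was -1.71 and still called, while Insig1 was -1.35 and no longer called. Without Day 8 replicate 2, Insig1 was -1.77 and still called, while Srebf2 was -1.03 and no longer called. Leaving out any other CXCL12 library took away both calls. The estimates for Insig1 stayed between -1.77 and -1.03, and those for Srebf2 between -1.71 and -1.03, when each library was left out in turn.

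The other genes of this control differed less. Scap, the escort that carries the SREBP factors, was 64.4 and 49.1 CPM with saline, 32.8 and 29 CPM at Day 3, and 53.2, 63.6 and 30.3 CPM at Day 8. Both Day 3 libraries were below both saline libraries, and the difference was -0.89 ± 0.39 with an adjusted p = 0.617 by limma. Insig2, which holds SCAP back as Insig1 does, was 24 and 28.4 CPM with saline, 28 and 33.8 CPM at Day 3, and 25.2, 39 and 45.5 CPM at Day 8. Srebf1, whose product acts mostly on fatty acid genes, stayed between 22.8 and 25.1 CPM in the 5 CXCL12 libraries and was 19.4 and 34 CPM with saline. No estimate for Insig2 or Srebf1 passed 0.48 in size in any of the 3 comparisons.

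Among the genes of transport and storage, Soat1, which esterifies cholesterol for storage, was 69.4 and 60.2 CPM with saline, 19.6 and 26.8 CPM at Day 3, and 24.1, 101 and 31.2 CPM at Day 8. Both Day 3 libraries were below both saline libraries, while the Day 8 libraries lay on both sides of saline. Its mean was 64.8 ± 6.49 CPM (SD, n = 2) with saline, 23.2 ± 5.08 CPM (SD, n = 2) at Day 3 and 52.2 ± 42.6 CPM (SD, n = 3) at Day 8. Soat1 was called lower at Day 3 than with saline, by -1.49 ± 0.62, with an adjusted p = 0.617 by limma, and no other of the 28 genes was called in this comparison, where 2.64% of all genes were called lower and 2.0% higher. The estimate stayed between -1.69 and -1.27 when each library was left out in turn. The call was lost without any 1 of the saline or Day 3 libraries and without Day 8 replicate 3. Without saline replicate 2 and Day 8 replicate 2, which left 1 saline library, the estimate was -1.65.

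Abca1 and Abcg1, the exporters that hand cholesterol to lipoproteins, followed a like order. Abca1 was 154 and 74.3 CPM with saline, 30.8 and 32.1 CPM at Day 3, and 23.1, 111 and 145 CPM at Day 8. Abcg1 was 6.62 and 9.07 CPM with saline, 3.48 and 4.45 CPM at Day 3, and 1.75, 7.67 and 12.6 CPM at Day 8. For both genes the Day 3 libraries and Day 8 replicate 1 were the 3 lowest. The Day 3 difference from saline was -1.84 ± 0.81 for Abca1 (adjusted p = 0.617 by limma), the largest below 0 of the 28 genes but outside the call, and -0.84 ± 0.77 for Abcg1. Without Day 8 replicate 1 the estimate for Abca1 was again -1.84 and the gene was called, since the spread of the Day 8 group enters the test.

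Npc1, which lets cholesterol out of lysosomes, was 45.1 and 29.2 CPM with saline, 16.1 and 24.8 CPM at Day 3, and 23.6, 38.1 and 63.9 CPM at Day 8, and was estimated at -0.83 ± 0.48 at Day 3 compared to saline. Stard4, a carrier of cholesterol through the cytosol and a known SREBP target, had another order, at 8.21 and 26.5 CPM with saline, 19.2 and 23.8 CPM at Day 3, and 18.2, 8.83 and 7.15 CPM at Day 8. It was low in saline replicate 1 and Day 8 replicate 3, as most enzymes were, but also in Day 8 replicate 2, where the enzyme sum was highest. All of the 5 genes but Stard4 lay wholly below saline at Day 3, where 22.2% of all genes did. At Day 8 compared to Day 3 the same 4 had estimates between 0.39 and 1.23, and Stard4 was -1.08 ± 0.56, none called. Without Day 8 replicate 1, Abca1, Abcg1 and Npc1 were called higher and Stard4 and Srebf2 lower at Day 8 than at Day 3, where 5.6% of all genes were called higher and 5.54% lower, and 2 of the 5 had an adjusted p under 0.1 by limma.

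The 5 transport and storage genes summed to 283.6 and 199.4 CPM with saline, 89.19 and 112 CPM at Day 3, and 90.75, 266.5 and 260.2 CPM at Day 8. Macrophages express these exporters strongly, and 7 macrophage markers summed to 468.3 and 459.6 CPM with saline, 257.6 and 191.5 CPM at Day 3, and 167.7, 406.3 and 422.1 CPM at Day 8. Both sums were low in the same 3 libraries, the Day 3 libraries and Day 8 replicate 1. Of the 7 macrophage markers, 3 were called lower at Day 3 than with saline (2.64% of all genes were) and 2 at Day 8 (1.42% of all genes were), and none was at 0 in any library. Csf1r, the macrophage growth factor receptor, was 122 and 51.7 CPM with saline, 29.4 and 27.4 CPM at Day 3, and 20.8, 56.2 and 59 CPM at Day 8. Not every marker had this order. Cd68 was 66.9 and 38.9 CPM with saline, 16.8 and 16.6 CPM at Day 3, and 17, 20.5 and 24.1 CPM at Day 8, below saline in every CXCL12 library. The part of macrophage RNA in the transport result was not tested.

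**Figure D4:**
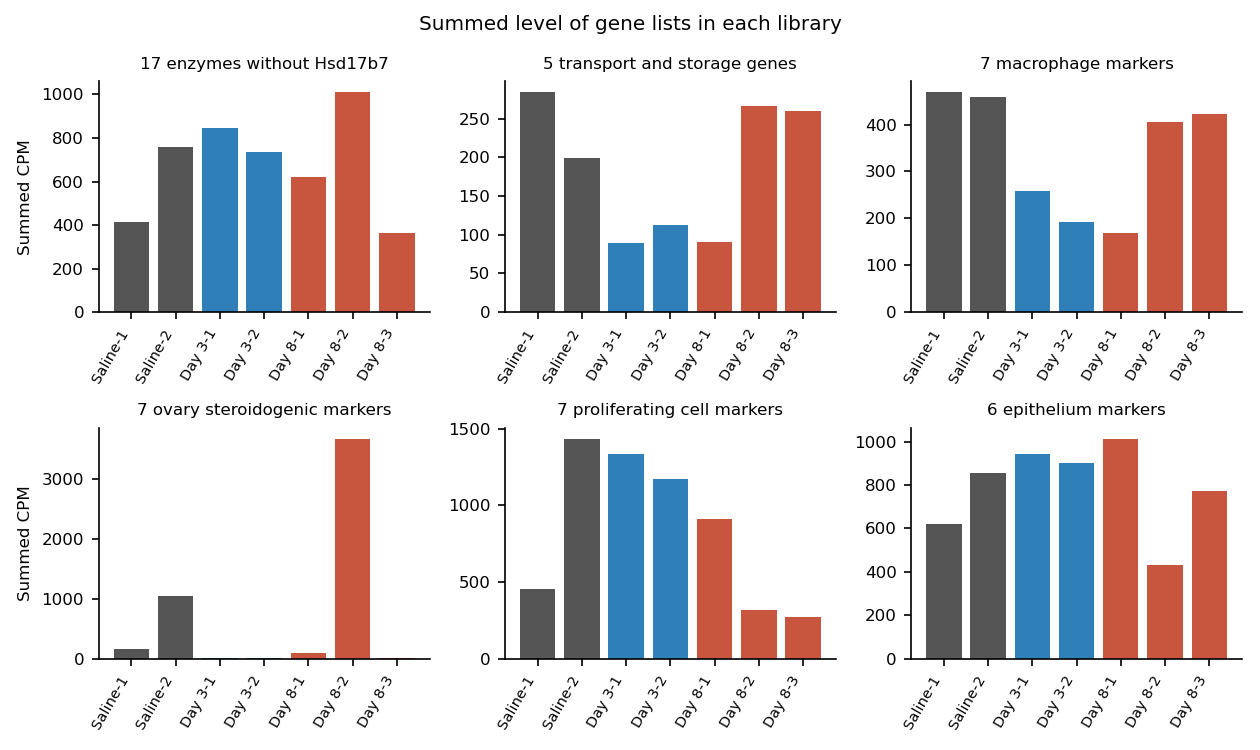
Summed level in CPM (y axis, from 0) of 6 gene lists in each library; 1 bar is 1 library. The 17 enzymes without Hsd17b7 are lowest in Day 8 replicate 3 at 365.3 CPM, the transport genes and macrophage markers are low in the same 3 libraries, and the ovary markers reach 3671 CPM in Day 8 replicate 2.

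Other lists moved between the libraries as well. Markers of proliferating cells, 7 genes, summed to 454.2 and 1434 CPM with saline, 1333 and 1171 CPM at Day 3, and 912.3, 319 and 272.1 CPM at Day 8. They were low in saline replicate 1 and Day 8 replicate 3, as the enzymes were, but also in Day 8 replicate 2, where the enzyme sum was highest. Epithelium markers, 6 genes, ranged from 429.7 CPM in Day 8 replicate 2 to 1012 CPM in Day 8 replicate 1. Adipocyte markers, 8 genes, ranged from 266.5 to 3055 CPM and were highest in saline replicate 2 and Day 3 replicate 1. Stroma markers summed to between 5863 and 11150 CPM and smooth muscle markers to between 1609 and 4273 CPM. Oestrogen-induced uterine genes, 6 in number, ranged from 483.4 CPM in Day 8 replicate 2 to 1480 CPM in Day 3 replicate 1, and 7 progesterone-induced genes from 45.98 CPM in saline replicate 1 to 360.2 CPM in Day 8 replicate 3. At Day 8 compared to saline, 7 of 8 adipocyte, 3 of 7 proliferation and 1 of 6 oestrogen-induced genes were called lower (1.42% of all genes were), and 2 of 6 smooth muscle and 3 of 7 progesterone-induced genes higher (1.53% of all genes were). At Day 8 compared to Day 3, 4 of 7 proliferation, 3 of 6 oestrogen-induced and 2 of 8 adipocyte genes were called lower (2.33% of all genes were), and 2 of 7 ovary and 2 of 6 tested progesterone-induced genes higher (2.2% of all genes were). At Day 3 compared to saline, 4 of 7 ovary genes and 1 of 6 tested progesterone-induced genes were called lower (2.64% of all genes were). In the same comparison 1 smooth muscle and 1 progesterone-induced gene were called higher (2.0% of all genes were). No epithelium or stroma marker was called in any of the 3 comparisons. The part of any of these lists in the enzyme levels was not tested.

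The wider pathway was read from 5 further lists of 53 genes in all, chosen by function. Of 11 other enzymes of sterol and isoprenoid synthesis, 9 were tested and 0 called in any comparison, with medians of -0.09 at Day 8 compared to saline, -0.11 at Day 3 compared to saline and 0.08 between the times. Cyb5r3, a reductase that feeds electrons to sterol oxidation, had the smallest P of this list at Day 8 compared to saline, at 0.67 ± 0.38. The 8 genes of SREBP processing and turnover had medians of 0.12, 0.04 and 0.24 in the same order, and 0 were called. Fbxw7, which marks SREBP for breakdown, was the foremost there at 0.58 ± 0.42. These lists, whose products handle the same molecules, thus showed medians within 0.24 of 0.

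Of 16 other genes of uptake, transport and ester hydrolysis, 15 were tested and 0 called, with medians of 0.12, -0.32 and 0.23. Scarb1, the receptor that takes cholesterol from high-density lipoprotein and is abundant in steroid-making cells, was 54.1 and 44.1 CPM with saline, 31.7 and 33.3 CPM at Day 3, and 36.4, 285 and 67.5 CPM at Day 8. As with Hsd17b7, only Day 8 replicate 2 was far out, and the Day 8 difference from saline of 1.40 ± 0.83 was 0.09 without that library. The 7 LXR and oxysterol genes had medians of 0.14, 0.04 and 0.30 with 0 called, and Nr1h3, the LXR-alpha receptor, was 0.47 ± 0.40 at Day 8 compared to saline. Of 11 fatty acid genes driven by SREBP, 10 were tested, with medians of 0.00, -0.39 and 0.33. Mid1ip1, which helps assemble acetyl-CoA carboxylase, was the only called gene of the 53, higher at Day 8 than at Day 3 by 1.00 ± 0.26 with an adjusted p = 0.653 by limma. It was 123 and 123 CPM with saline, 80.6 and 88.4 CPM at Day 3, and 125, 157 and 213 CPM at Day 8, so that Day 3 lay below both other groups. Its call stood at the fold limit and was lost without quantile normalization (0.93), with estimated counts (0.97), with the replicate block (0.81), and without any 1 of Day 3 replicate 1 (0.92), Day 8 replicate 2 or Day 8 replicate 3 (0.81). Elovl5, a fatty acid elongase, was 0.57 ± 0.37 at Day 8 compared to saline.

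The comparisons share libraries, since both CXCL12 groups were set against the same 2 saline libraries and the Day 3 libraries enter 2 of the 3 comparisons, so that their estimates are not independent of each other.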

How the data were processed

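Uterine RNA was measured in 7 QuantSeq libraries. The authors aligned reads with Bowtie2 and used Bedtools coverage for the gene counts, in which reads aligning to several places were included; the submitters' processing notes name Bowtie2, edgeR, hg19 and mm10 without roles, and versions and annotation are not given in the sources used here. For 6 libraries the authors deposited whole-number counts that were not normalized. The table of Day 3 replicate 1 holds, as deposited, normalized counts on a log2 scale; with log2 undone, 97.6% of 3275 low values lay within 0.1 of a multiple of a constant 1.0515, where chance gives 20%, so its counts were also estimated. Day 8 was compared to saline on the counts with edgeR 4.0.16 (TMM, filterByExpr, quasi-likelihood, 15388 genes, 3 residual degrees of freedom). Day 3 was compared with limma 3.58.1 (trend) on quantile-normalized log2(scaled count + 1) of 7 libraries (at least 10 in at least 2 libraries, 14830 genes, 4 residual degrees of freedom), since the table of Day 3 replicate 1 allows no count test as the main one. R was 4.3.3. Scripts were tested on simulated data. In this series 35 symbols stood on more than one row, and 2028 blank lines closing 6 tables were dropped.

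The 28 genes and all lists were chosen with earlier results of these data known. Named genes were all 28 members, and of the pathway lists those called and, in each list, the gene with the smallest P at Day 8 compared to saline, and up to 2 markers per list. Alternatives were other normalizations and filters, DESeq2 1.42.0, a pseudocount of 0.1, a replicate block, counts estimated for Day 3 replicate 1, and each library left out. Rn45s took 9.36% to 13.0% of counts.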

Additional observations from a re-analysis of the deposited data

Results flagged for a closer look

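Insig1 and Srebf2 passed the unadjusted threshold in the comparison of Day 8 with Day 3, in which the saline term cancels. The saline libraries have no stated day, so a difference in the effect of CXCL12 cannot be told apart from a difference in time. For Insig1 the difference was -1.39 ± 0.52 on the log2 scale (adjusted p = 0.696 by limma). Its estimates against saline were 0.90 ± 0.57 at Day 3 by limma and -0.49 ± 0.58 at Day 8 by edgeR. For Srebf2 the difference was -1.30 ± 0.46 (adjusted p = 0.695 by limma), beside 0.55 ± 0.51 at Day 3 by limma and -0.62 ± 0.49 at Day 8 by edgeR. Because the methods differ, the estimates against saline do not subtract exactly to these differences. All 3 Day 8 libraries were below both Day 3 libraries for each gene. Neither passed an adjusted p of 0.1. Both calls were lost with the replicate block and without any 1 of Day 3 replicate 1, Day 3 replicate 2 and Day 8 replicate 3, that of Insig1 also without Day 8 replicate 1 and with no filter on low values, and that of Srebf2 also without Day 8 replicate 2. No group was tested for a single outlying library, since every group held 2 or 3.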

How the results depend on the processing

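With each library left out in turn, the median log2 fold change of the 28 ran from -0.22 to 0.52 at Day 8 compared to saline. It ran from -0.07 to 0.55 at Day 3 compared to saline and from -0.59 to 0.02 at Day 8 compared to Day 3. With 1 Day 8 library left out at a time, 1 of the 28 was called in the first comparison, 1 or 2 in the second and 1 to 5 in the third. Of all genes, 1.5% to 6.69%, 4.29% to 5.17% and 3.16% to 11.1% were then called, in the same order. Leaving out a saline or Day 3 library left 1 library in a group, and the number of the 28 called is not given where that group was compared. Hsd17b7 at Day 8 compared to saline ran from -1.26, without Day 8 replicate 2, to 4.52, and Scarb1 from 0.09 to 1.85. The 5 called genes came at Day 8 compared to Day 3 without Day 8 replicate 1, where 11.1% of all genes were called. Leaving out both saline replicate 2 and Day 8 replicate 2, a choice made after the data were seen, gave 2, 10 and 8 called genes, Hsd17b7 at -0.54 and Scarb1 at -0.05. At Day 3 compared to saline, 0 of the 28 were called with no filter on low values, where 3.91% of all genes were. Without quantile normalization 3 were called (Soat1, Abca1 and Scap lower), where 7.03% of all genes were. The median of all genes then moved from 0.01 to -0.26. With counts estimated for Day 3 replicate 1, 2 of the 28 were called, where 5.15% of all genes were. At Day 8 compared to Day 3, 1 of the 28, Srebf2, was called with no filter, where 3.92% of all genes were. The cause of these shifts was not tested. Fitting the replicate number as a block called 0, 3 (Soat1 lower, Idi1 and Tm7sf2 higher) and 0 of the 28 in the 3 comparisons. Of all genes it called 1.02%, 3.83% and 2.82%. Deviations of same-numbered libraries from their group means correlated between -0.173 and 0.0105. In a group of 2 the deviations mirror each other, so these values cannot show whether the numbers pair the samples. The other settings for Day 8 compared to saline (upper-quartile factors, DESeq2, limma, other filters, fewer libraries in the fit) called 0 of the 28, where 2.75% to 3.77% of all genes were called. Every median of the 28 stayed within 0.64 of its reported value, the within-group SD of the per-library median of the 28. That margin is wider than the reported medians of 0.02, 0.35 and -0.33, and each of these changed sign in at least 1 fit. DESeq2 gave 49 genes an adjusted p under 0.1 at Day 8 compared to saline and edgeR 0, none of the 28 among them. With 3 or 4 residual degrees of freedom and a biological coefficient of variation of 42.2%, small differences could not be detected at this size.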
